A study of Mus musculus with 6 samples.

Results

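The DnaJ proteins, also called HSP40 proteins, are the cochaperones of the HSP70 chaperones. The members described here are all mouse genes whose symbol is Dnaja, Dnajb or Dnajc followed by a number: 43 of the 34866 genes in the deposited table. Of these, 4 belong to class A, 13 to class B and 26 to class C, and 38 of the 43 had enough counts to be tested. The study profiled livers of male C57BL/6 mice at 8 weeks of age by stranded mRNA sequencing, in 2 groups of 3 libraries. The iD1 animals received a drug known here only by that code by intraperitoneal injection. The controls received vehicle according to the titles and the design text, although their treatment label reads "Untreated". The sources used here give neither the dose nor the time from injection to sampling. The labels do not say whether each library is a separate animal, so the p-values measure the spread between these libraries. A vehicle column whose number matches none of the titles is called the unnumbered vehicle replicate.

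Every DnaJ protein carries a J domain, a short helical fold with a conserved histidine-proline-aspartate motif that stimulates the ATPase of HSP70. The hydrolysis closes HSP70 on an unfolded client, and nucleotide exchange factors later reopen it. Class A members resemble the bacterial DnaJ in their whole layout, class B members keep the glycine-rich stretch but lack the zinc-binding region, and class C members share only the J domain and are otherwise diverse. The members serve HSP70 proteins in different compartments: Hspa8 and the stress-inducible Hspa1a and Hspa1b in the cytosol, Hspa5 (BiP) in the endoplasmic reticulum and Hspa9 (mortalin) in mitochondria. Liver makes large amounts of secreted protein, and its endoplasmic reticulum carries several dedicated members. Some cytosolic members are induced with Hspa1a through heat shock factors, and some endoplasmic reticulum members through the unfolded protein response.

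Upstream sequences are shown first for 4 members, because they carry, or lack, the elements through which these responses are known to act. Windows from 250 bases before to 50 bases after each annotated start were taken from RefSeq on GRCm38.p6, and 36 of the 43 members had at least 1 window. Heat shock elements are built from units of GAA and TTC, and pairs of the form GAANNTTC or TTCNNGAA were searched on both strands. A pair occurred in a window of 6 of the 36 members (16.7%; Dnaja1, Dnaja4, Dnajb4, Dnajb6, Dnajc10 and Dnajc27), against 17% of the 27025 genes with a window and 15.1% of all 32851 windows. A run of 3 alternating units, in which both pairs overlap, occurred in 1 member, Dnajb6 (2.78%), against 0.662% of genes and 0.603% of windows. The endoplasmic reticulum stress element, CCAAT followed after 9 bases by CCACG, occurred in 1 member, Dnajc3 (2.78%), against 0.137% of genes and 0.119% of windows. The stretches below are 100 bases long, 5′ to 3′ on the plus strand, and the capitals mark the match. In Dnajb6 (chr5:29735798-29735897) the capitals are the run of 3 units, from 46 to 34 bases before the first of 2 annotated starts; counted from the other start the run begins 127 bases before it. In Dnaja1 (chr4:40722297-40722396) they are a single pair, which begins 124 bases before the first of 3 annotated starts. In Dnajc3 (chr14:118937786-118937885) they are the endoplasmic reticulum stress element, which begins 105 bases before its 1 annotated start. The stretch before the first of 2 annotated starts of Dnajb2 (chr1:75236323-75236422), the member with the lowest adjusted p, holds none of the searched elements and so has no capitals. A match is a description of letters and not a measured binding site.
Dnajb6: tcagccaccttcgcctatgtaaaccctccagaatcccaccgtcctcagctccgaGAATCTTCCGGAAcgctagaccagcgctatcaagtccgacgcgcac
Dnaja1: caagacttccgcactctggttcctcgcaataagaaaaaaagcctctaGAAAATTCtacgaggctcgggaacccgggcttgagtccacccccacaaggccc
Dnajc3: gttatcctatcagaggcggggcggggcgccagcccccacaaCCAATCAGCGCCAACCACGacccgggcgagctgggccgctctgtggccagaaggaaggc
Dnajb2: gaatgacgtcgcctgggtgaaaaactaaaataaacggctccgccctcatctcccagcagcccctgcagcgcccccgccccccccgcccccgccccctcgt

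The libraries held between 23515430 and 35207448 counts in the iD1 group and between 27160753 and 37613418 in the vehicle group, after rounding of the estimated counts. Mitochondrially encoded transcripts took 8.68% to 10.3% of the counts in iD1 libraries and 10.6% to 13.6% in vehicle libraries. The first principal component (56.8% of the variance) separated the groups, with iD1 libraries between 19.4 and 49.7 and vehicle libraries between -45.8 and -32.5. CPM is a gene's count scaled to the size of its library, after that size was itself scaled by the trimmed mean of M values (TMM). Hepatocyte markers summed to 100856 to 109125 CPM in iD1 livers and 77139 to 101219 CPM in vehicle livers. The defining genes of the labelled tissue were thus abundant in every library, and 3 of the 8 rose. With this scaling all tested genes also summed higher in iD1 libraries (994679 to 1138650 CPM) than in vehicle libraries (902457 to 990115 CPM). Of 6 neutrophil markers, 4 were tested and 3 rose, with sums of 3.51 to 11.2 CPM in iD1 livers and 1.16 to 1.46 CPM in vehicle livers; Ly6g and Mpo stood at 0 in every iD1 library. Of 6 cholangiocyte markers 1 rose (Sox9) and 2 fell (Krt19 and Cdh1), while Krt7, Epcam and Spp1 did not pass. The sums of all 6 were 44.0 to 58.9 CPM in iD1 livers and 69.9 to 79.5 CPM in vehicle livers. Much of that difference was Cdh1, at 13.4 to 18.7 CPM in iD1 livers and 39.2 to 47.6 CPM in vehicle livers. Krt19 stood at 0.121 to 0.291 CPM in iD1 livers and 1.13 to 1.38 CPM in vehicle livers. As background for the marker counts, edgeR called 16.7% of the 13718 tested genes, and 4293 had an unadjusted p under 0.05. Of the sinusoidal endothelial markers 1 of 8 fell, with 6 at an unadjusted edgeR p under 0.05. Among those 6, Lyve1 was higher and the others lower. Of the stellate cell markers 1 of 7 fell, with 4 at an unadjusted edgeR p under 0.05. Among those 4, Ecm1 was higher and the others lower. No Kupffer cell marker (0 of 9; 2 at an unadjusted p under 0.05) and no T or B cell marker (0 of 3 tested; 0 at an unadjusted p under 0.05) passed edgeR's test. The part of these shifts in the DnaJ values was not tested. In such bulk tissue, fewer cells of a type and less RNA per cell cannot be told apart.

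Most DnaJ members differed little between iD1 and vehicle livers, and the few calls went in both directions. Dnaja3, the mitochondrial class A member, and Dnajc16, a membrane protein of the endoplasmic reticulum, rose in iD1 livers. Dnajb2, a cytosolic member that hands clients to the proteasome, and Dnajc28, a little-studied member grouped here with the mitochondrial proteins, fell. In all, 4 of 38 tested members (10.5%) passed an adjusted p under 0.05 in edgeR's quasi-likelihood test, against 16.7% of the 13718 tested genes. Higher in iD1 were 2 members against a background of 8.42% of genes, and lower were 2 members against 8.3%. The log2 fold changes of the 38 members ran from -0.73 to 1.62, with a median of 0.09, against a median of 0.00 over all tested genes. Their median size was 0.24 with a median standard error (SE) of 0.14, against 0.28 and 0.17 over all tested genes. A size under 0.5 was found for 31 members (81.6%) and for 71.7% of all tested genes.

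The 3 iD1 libraries did not overlap the 3 vehicle libraries for 17 of the 38 members, 9 higher and 8 lower, and the background for such a separation was 37.2% of tested genes. Besides the called members, the 7 separated upwards were Dnaja2, Dnajb1, Dnajb12, Dnajc5, Dnajc13, Dnajc17 and Dnajc25, and the 6 separated downwards were Dnajb4, Dnajb14, Dnajc1, Dnajc11, Dnajc14 and Dnajc22. Summed over all 43 members, DnaJ transcripts took 1610, 1758 and 1559 CPM in iD1 replicates 1, 2 and 3, against 1543, 1580 and 1819 CPM in vehicle replicates 1 and 2 and the unnumbered vehicle replicate. With these TMM-scaled library sizes the sums of the groups overlapped, and the highest belonged to a vehicle library. The same sums over all tested genes were 994679, 1138650 and 1091270 CPM in iD1 replicates 1 to 3. In vehicle replicates 1 and 2 and the unnumbered vehicle replicate they were 902457, 905488 and 990115 CPM. Relative to these totals, each iD1 library had less DnaJ transcript than each vehicle library, so the overlap depends on the scaling. An exact permutation test of the DnaJ sum, 3 libraries against 3, could not give a two-sided p below 0.1.

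**Figure D1:**
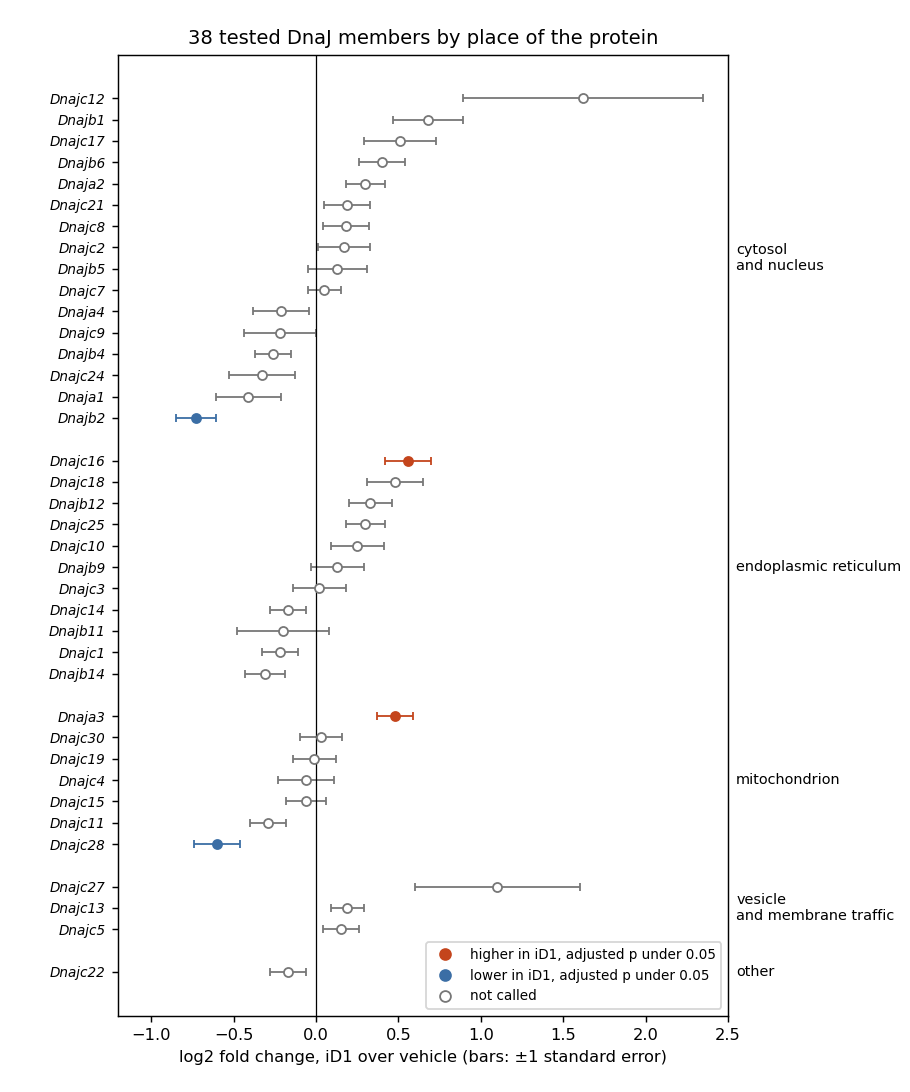
Log2 fold change, iD1 over vehicle, of the 38 tested DnaJ members, with bars of 1 standard error, grouped by where the protein acts. Filled points mark the 4 called members; the calls point both ways, from -0.73 for Dnajb2 to 0.56 for Dnajc16, and most open points lie within 0.5 of 0.

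Of the 20 cytosolic and nuclear members 16 were tested, and 1 passed the test, Dnajb2, which was lower in iD1. Dnajb2 (ENSMUSG00000026203, chr1:75236406-75245692, plus strand, GRCm38), whose protein binds ubiquitin and sorts HSP70 clients to the proteasome, had 28.5, 29.2 and 24.7 CPM in iD1 replicates 1 to 3, against 51.0, 43.4 and 42.4 CPM in the vehicle libraries. Every iD1 library lay well below every vehicle library. The means were 27.5 ± 2.41 CPM in iD1 livers and 45.6 ± 4.73 CPM in vehicle livers (SD, n = 3 each), a ratio of 0.603 (log2 fold change -0.73, SE 0.12; edgeR quasi-likelihood test, Benjamini-Hochberg adjusted p = 0.00521). The call held without each of the 6 libraries in turn, with edgeR adjusted p-values from 0.00742 to 0.0245.

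Dnajb1 is the classic heat-inducible partner of Hspa1a in disaggregation and refolding. It had 26.4, 45.3 and 30.5 CPM in iD1 replicates 1 to 3, against 19.0, 19.2 and 25.6 CPM in the vehicle libraries. All iD1 values lay above all vehicle values, though iD1 replicate 1 exceeded the unnumbered vehicle replicate by little and iD1 replicate 2 stood highest. The difference did not pass (log2 fold change 0.68, SE 0.21; edgeR quasi-likelihood, Benjamini-Hochberg adjusted p = 0.059). It did pass in DESeq2 (adjusted p = 0.0177) and in edgeR without iD1 replicate 1 (adjusted p = 0.0239).

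Dnajb6 suppresses the aggregation of polyglutamine proteins, and its upstream stretch carries the run of 3 heat shock units printed above. Its level was 75.5, 89.7 and 97.6 CPM in iD1 replicates 1 to 3, against 58.7, 63.3 and 76.4 CPM in the vehicle libraries. The groups overlapped, because iD1 replicate 1 lay just under the unnumbered vehicle replicate. The difference did not pass (0.40 on the log2 scale, SE 0.14; edgeR quasi-likelihood, Benjamini-Hochberg adjusted p = 0.0835), except without iD1 replicate 1 (edgeR adjusted p = 0.0416).

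Dnaja1, Dnaja2 and Dnaja4 are the cytosolic class A members, general folding partners of Hspa8. Dnaja1 had 311, 244 and 256 CPM in iD1 replicates 1 to 3, against 283, 329 and 467 CPM in the vehicle libraries (log2 fold change -0.41, SE 0.20; edgeR quasi-likelihood, Benjamini-Hochberg adjusted p = 0.190). The groups overlapped, and the unnumbered vehicle replicate stood far above the other two vehicle libraries; without it the log2 fold change was -0.18. Hspa8, the constitutive cytosolic HSP70 that Dnaja1 serves, showed the same order within the vehicle group, with 1506, 1186 and 1183 CPM in iD1 replicates 1 to 3, against 1429, 1672 and 2397 CPM in the vehicle libraries. Dnaja2 had 128, 131 and 131 CPM in iD1 livers, against 100, 97.2 and 119 CPM in vehicle livers, so the groups were apart, but the difference did not pass (log2 fold change 0.30, SE 0.12; edgeR quasi-likelihood, Benjamini-Hochberg adjusted p = 0.119). Dnaja4 was low, at 3.90 to 4.37 CPM in iD1 livers and 4.16 to 5.30 CPM in vehicle livers.

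Dnajb4 and Dnajb5 are close relatives of Dnajb1. Dnajb4 had 31.2, 31.7 and 30.5 CPM in iD1 replicates 1 to 3, against 34.4, 36.2 and 41.1 CPM in the vehicle libraries. The groups were apart and the direction was opposite to that of Dnajb1, but the difference did not pass (log2 fold change -0.26, SE 0.11; edgeR quasi-likelihood, Benjamini-Hochberg adjusted p = 0.151). Dnajb5 ranged from 4.03 to 5.47 CPM in iD1 livers and from 4.02 to 4.84 CPM in vehicle livers. Dnajc7, which binds HSP70 and HSP90 through tetratricopeptide repeats, was the most even of the cytosolic members, with 37.6, 39.1 and 39.0 CPM in iD1 livers and 37.4, 35.8 and 38.2 CPM in vehicle livers (log2 fold change 0.05, SE 0.10). Its exons share 154 bases on the other strand with Cnp, which fell. They also share 287 bases on the other strand with Nkiras2, whose log2 fold change of -0.43 did not pass.

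The remaining cytosolic and nuclear class C members have specialised tasks, and none passed the test. Dnajc2, which works at the ribosome, had 14.7 to 21.3 CPM in iD1 livers and 13.4 to 16.6 CPM in vehicle livers. Dnajc21, a factor of ribosome maturation, had 22.3 to 29.1 CPM in iD1 livers and 20.3 to 24.5 CPM in vehicle livers. The ranges of both overlapped, with iD1 replicate 2 the highest library of its group. The splicing-linked Dnajc8 had 16 to 19.7 CPM in iD1 livers and 14.0 to 18.3 CPM in vehicle livers. Dnajc17, also linked to splicing, had 2.74, 2.36 and 2.14 CPM in iD1 replicates 1 to 3, against 1.76, 1.69 and 1.62 CPM in the vehicle libraries. Its groups were apart at a low level, and its log2 fold change was 0.51 (SE 0.22; edgeR quasi-likelihood, Benjamini-Hochberg adjusted p = 0.137). Dnajc9, a histone chaperone, had 3.11 to 3.91 CPM in iD1 livers and 3.21 to 5.32 CPM in vehicle livers. Dnajc24, a factor of diphthamide synthesis, had 2.55 to 3.72 CPM in iD1 livers and 3.66 to 4.36 CPM in vehicle livers.

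Dnajc12 is a cochaperone of phenylalanine hydroxylase and related enzymes, and it is singled out here because its log2 fold change was the largest of the 38. It had 8.67, 31.4 and 5.90 CPM in iD1 replicates 1 to 3, against 6.95, 4.24 and 3.92 CPM in the vehicle libraries. The highest iD1 library was 5.32 times the lowest, and iD1 replicate 3 lay below vehicle replicate 1. The log2 fold change of 1.62 had an SE of 0.73 and did not pass (edgeR quasi-likelihood, Benjamini-Hochberg adjusted p = 0.213), and without iD1 replicate 2 it was 0.53.

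**Figure D2:**
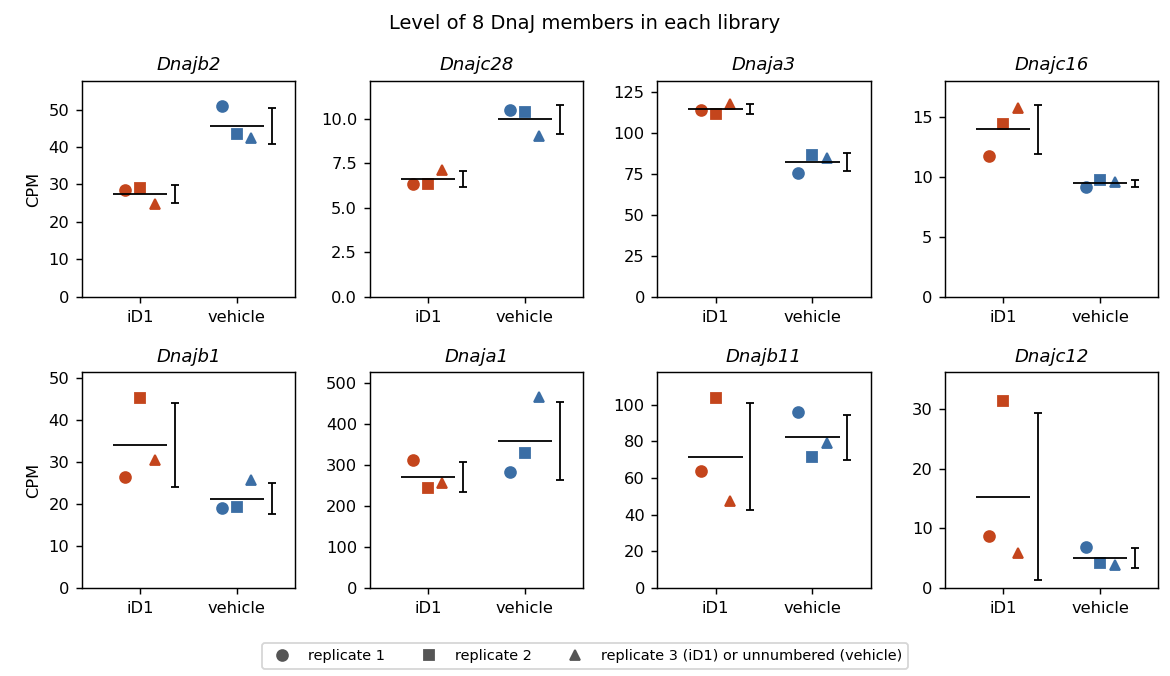
CPM of 8 DnaJ members in each library, iD1 left of vehicle; symbols give the replicate, horizontal lines the mean and bars the SD (n = 3). The top row shows the 4 called members, whose groups are apart; in the bottom row a single library stands high within a group, as iD1 replicate 2 does for Dnajc12 at 31.4 CPM.

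All 11 members of the endoplasmic reticulum were tested, and 1 passed, Dnajc16, which was higher in iD1. Dnajc16 (ENSMUSG00000040697, chr4:141760189-141790931, minus strand), a membrane protein with a role in the size of autophagosomes, had 11.7, 14.4 and 15.7 CPM in iD1 replicates 1 to 3, against 9.15, 9.71 and 9.56 CPM in the vehicle libraries. All iD1 values lay above the narrow vehicle range. The means were 13.9 ± 2.05 CPM in iD1 livers and 9.47 ± 0.292 CPM in vehicle livers (SD, n = 3 each), a ratio of 1.47 (log2 fold change 0.56, SE 0.14; edgeR quasi-likelihood test, Benjamini-Hochberg adjusted p = 0.0244). The call was lost without any single library other than iD1 replicate 1 (edgeR adjusted p from 0.0631 to 0.0944). It was also lost with library sizes left unscaled by TMM (log2 fold change 0.35, edgeR adjusted p = 0.109).

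Other membrane-bound members of this compartment differed in either direction, and none of them passed. Dnajb12 and Dnajb14 are related J proteins that recruit Hspa8 to the cytosolic face of the membrane for the disposal of misfolded membrane proteins. Dnajb12 had 42.3, 33.3 and 39.4 CPM in iD1 replicates 1 to 3, against 30.7, 32.8 and 28.1 CPM in the vehicle libraries (log2 fold change 0.33, SE 0.13; edgeR quasi-likelihood, Benjamini-Hochberg adjusted p = 0.112). Dnajb14 had 22.4, 19.2 and 20.6 CPM in iD1 replicates 1 to 3, against 26.3, 27.2 and 23.6 CPM in the vehicle libraries (log2 fold change -0.31, SE 0.12; edgeR quasi-likelihood, Benjamini-Hochberg adjusted p = 0.102). The groups of both genes were apart, upwards for Dnajb12 and downwards for Dnajb14.

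Dnajc18, a membrane member related to that pair, had 9.23, 13 and 11.2 CPM in iD1 replicates 1 to 3, against 6.72, 9.33 and 7.87 CPM in the vehicle libraries. The groups touched, since iD1 replicate 1 lay just under vehicle replicate 2, and the difference did not pass (log2 fold change 0.48, SE 0.17; edgeR quasi-likelihood, Benjamini-Hochberg adjusted p = 0.088) except without iD1 replicate 1 (edgeR adjusted p = 0.0388). Dnajc25 had 32.4, 30.4 and 27.3 CPM in iD1 replicates 1 to 3, against 22.5, 24.7 and 25.9 CPM in the vehicle libraries (log2 fold change 0.30, SE 0.12; edgeR quasi-likelihood, Benjamini-Hochberg adjusted p = 0.110). The groups were apart by little. Dnajc1, which binds Hspa5 from the membrane, had 23.0 to 26.7 CPM in iD1 livers and 28.3 to 29.1 CPM in vehicle livers, and Dnajc14, which assists the export of membrane receptors, had 23.6 to 24.8 CPM in iD1 livers and 25.3 to 28.3 CPM in vehicle livers. Both lay lower in every iD1 library by log2 fold changes of -0.22 and -0.17, without passing.

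The 4 luminal partners of Hspa5 did not pass the test, and their iD1 libraries differed among themselves. Dnajc3 (P58IPK), whose upstream stretch carries the endoplasmic reticulum stress element printed above, had 217, 289 and 195 CPM in iD1 replicates 1 to 3, against 217, 235 and 241 CPM in the vehicle libraries (log2 fold change 0.02, SE 0.16). The vehicle values lay within the iD1 range, and the sign was negative with upper-quartile scaling, with unscaled library sizes, in limma-voom, without vehicle replicate 1 and without iD1 replicate 2. Dnajb11 (ERdj3), which binds nascent secretory proteins, had 63.7, 104 and 47.3 CPM in iD1 replicates 1 to 3, against 95.8, 71.7 and 79.0 CPM in the vehicle libraries (log2 fold change -0.20, SE 0.28). The iD1 libraries spanned the whole vehicle range; without iD1 replicate 2 the log2 fold change was -0.57, and without iD1 replicate 3 it was 0.03.

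Dnajc10 (ERdj5), a disulfide reductase, had 17.5, 25.9 and 20.3 CPM in iD1 replicates 1 to 3, against 19.2, 15.4 and 18.9 CPM in the vehicle libraries. Dnajb9 (ERdj4), an inhibitor of the stress sensor Ire1, had 67.6, 87.8 and 77.1 CPM in iD1 replicates 1 to 3, against 62.4, 62.8 and 87.9 CPM in the vehicle libraries. In all 4 luminal members iD1 replicate 2 was the highest iD1 library. Their chaperone Hspa5 (BiP) had the same highest library, with 529, 947 and 458 CPM in iD1 replicates 1 to 3, against 714, 682 and 873 CPM in the vehicle libraries (log2 fold change -0.23, SE 0.27). It did not pass edgeR's quasi-likelihood test (Benjamini-Hochberg adjusted p = 0.599).

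All 7 mitochondrial members were tested, and 1 was higher and 1 lower in iD1. Dnaja3 (Tid1; ENSMUSG00000004069, chr16:4639989-4707695, plus strand), the main J protein partner of Hspa9 in the matrix, had 114, 112 and 118 CPM in iD1 replicates 1 to 3, against 75.9, 86.5 and 85.0 CPM in the vehicle libraries. The iD1 libraries were close together and all above the vehicle libraries. The means were 115 ± 3.01 CPM in iD1 livers and 82.5 ± 5.77 CPM in vehicle livers (SD, n = 3 each), a ratio of 1.39 (log2 fold change 0.48, SE 0.11; edgeR quasi-likelihood test, Benjamini-Hochberg adjusted p = 0.0194). The call was lost without vehicle replicate 1, the unnumbered vehicle replicate or iD1 replicate 3 (edgeR adjusted p of 0.0625, 0.0681 and 0.0715), and with unscaled library sizes (log2 fold change 0.27, edgeR adjusted p = 0.135). Vasn overlaps 160 exon bases of Dnaja3 on the same strand, and the log2 fold change of Vasn was -0.50 and did not pass. Coro7 overlaps 153 exon bases of Dnaja3 on the other strand. The log2 fold change of Coro7 was 0.36 and did not pass, though its groups were apart upwards.

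Dnajc28 (ENSMUSG00000039763, chr16:91614254-91619026, minus strand) had 6.33, 6.34 and 7.10 CPM in iD1 replicates 1 to 3, against 10.5, 10.4 and 9.01 CPM in the vehicle libraries. All iD1 values lay below all vehicle values. The means were 6.59 ± 0.444 CPM in iD1 livers and 9.95 ± 0.819 CPM in vehicle livers (SD, n = 3 each), a ratio of 0.662 (log2 fold change -0.60, SE 0.14; edgeR quasi-likelihood test, Benjamini-Hochberg adjusted p = 0.0177). The call was lost without vehicle replicate 1, vehicle replicate 2 or iD1 replicate 2 (edgeR adjusted p of 0.0550, 0.0622 and 0.0517).

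Dnajc11, a protein of the outer membrane tied to the organisation of cristae, had 38, 37.7 and 36.6 CPM in iD1 replicates 1 to 3, against 44.5, 43.3 and 49.8 CPM in the vehicle libraries. The groups were apart and the iD1 libraries close together, but the difference did not pass (log2 fold change -0.29, SE 0.11; edgeR quasi-likelihood, Benjamini-Hochberg adjusted p = 0.100). It did pass in edgeR with upper-quartile scaling (adjusted p = 0.0439) and with unscaled library sizes (adjusted p = 0.0191). Dnajc15 and Dnajc19 belong to the import motor of the inner membrane. Dnajc15 had 18.2 to 19.3 CPM in iD1 livers and 18 to 21.8 CPM in vehicle livers, and Dnajc19 had 31.1 to 36.2 CPM in iD1 livers and 30.6 to 38.3 CPM in vehicle livers. The counts of Dnajc19 are uncertain, because reads could be shared with its pseudogene copy Dnajc19-ps, at 3.90 to 6.28 CPM in iD1 livers and 4.52 to 6.10 CPM in vehicle livers. Dnajc4 (4.18 to 5.80 CPM in iD1 livers, 4.78 to 5.62 CPM in vehicle livers) and Dnajc30 (10.7 to 11.7 CPM in iD1 livers, 9.50 to 12.1 CPM in vehicle livers) overlapped between the groups. The log2 fold changes of these 4 members lay between -0.06 and 0.03.

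Of the 4 members of vesicle and membrane traffic, 3 were tested and none passed; none had an unadjusted p under 0.05 in edgeR, and DESeq2 and limma-voom called none. Dnajc13, an endosomal protein, had 25.5, 25.6 and 26.2 CPM in iD1 replicates 1 to 3, against 22.1, 23.7 and 21.8 CPM in the vehicle libraries (log2 fold change 0.19, SE 0.10). Dnajc5, the cysteine string protein of secretory vesicles, had 51.3, 47.2 and 48.0 CPM in iD1 replicates 1 to 3, against 40.9, 44.4 and 46.9 CPM in the vehicle libraries (log2 fold change 0.15, SE 0.11). Both were slightly higher in every iD1 library. Dnajc27, a Rab-like GTPase with a J domain, was near the lower limit of the test, at 0.685, 0.777 and 1.07 CPM in iD1 replicates 1 to 3, against 0.699, 0.169 and 0.337 CPM in the vehicle libraries (log2 fold change 1.10, SE 0.50). Dnajc22, whose Drosophila counterpart Wurst acts in endocytosis, was not assigned to a compartment and had 54.4, 60.1 and 61.2 CPM in iD1 replicates 1 to 3, against 67.4, 63.0 and 67.0 CPM in the vehicle libraries. Its groups were apart downwards, and the difference did not pass (log2 fold change -0.17, SE 0.11; edgeR quasi-likelihood, Benjamini-Hochberg adjusted p = 0.319).

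The 5 members that were not tested had too few counts in all. Over the 3 libraries of a group, Dnajb13, known from the sperm flagellum, had 29 counts in iD1 livers and 14 in vehicle livers, and its exons share 305 bases on the other strand with Ucp2, which rose. Dnajb3 had 5 counts in iD1 livers and 15 in vehicle livers, and Dnajb7 had 3 counts in iD1 livers and 10 in vehicle livers. Dnajc6, the neuronal auxilin that uncoats clathrin vesicles, had 4 counts in iD1 livers and 4 in vehicle livers, and Dnajb8, known from testis, had 0 counts in each group. Of the 43 members, 17 share exon bases with another gene, 5 of them on the same strand. The sources used here do not say whether the counting used strand, so reads of such partners cannot be told apart.

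The levels of the tested members, as CPM per kilobase of the longest transcript, differed widely. Ordered by the mean over all 6 libraries, Dnaja1 came first at 56.0, with 48.1 ± 6.39 in iD1 livers and 63.9 ± 17.0 in vehicle livers (SD, n = 3 each, as in the next values). Dnajc3 followed with 45.4 ± 9.61 in iD1 livers and 44.9 ± 2.40 in vehicle livers, and Dnaja2 with 44.6 ± 0.530 in iD1 livers and 36.1 ± 3.98 in vehicle livers. Dnajc22 had 37.4 ± 2.32 in iD1 livers and 42.1 ± 1.52 in vehicle livers, and Dnaja3 had 43.3 ± 1.14 in iD1 livers and 31.1 ± 2.18 in vehicle livers. Dnaja1 and Dnajc3 did not differ beyond their spread in the iD1 group, nor did Dnajc3 and Dnaja2. In the vehicle group the mean of Dnaja1 lay above that of Dnajc3, and that of Dnajc3 above that of Dnaja2. Each of these vehicle differences was larger than either SD. In the iD1 group Dnaja3 lay above Dnajc22, and in the vehicle group the order was the opposite. The order depends on the transcript length used: over the union of exons Dnajc3 came first, then Dnaja2, then Dnaja1 at 36.5. The lowest tested members were Dnajb5, with 0.942 ± 0.142 in iD1 livers and 0.864 ± 0.0841 in vehicle livers, and Dnajc27, with 0.179 ± 0.0426 in iD1 livers and 0.0854 ± 0.0576 in vehicle livers.

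**Figure D3:**
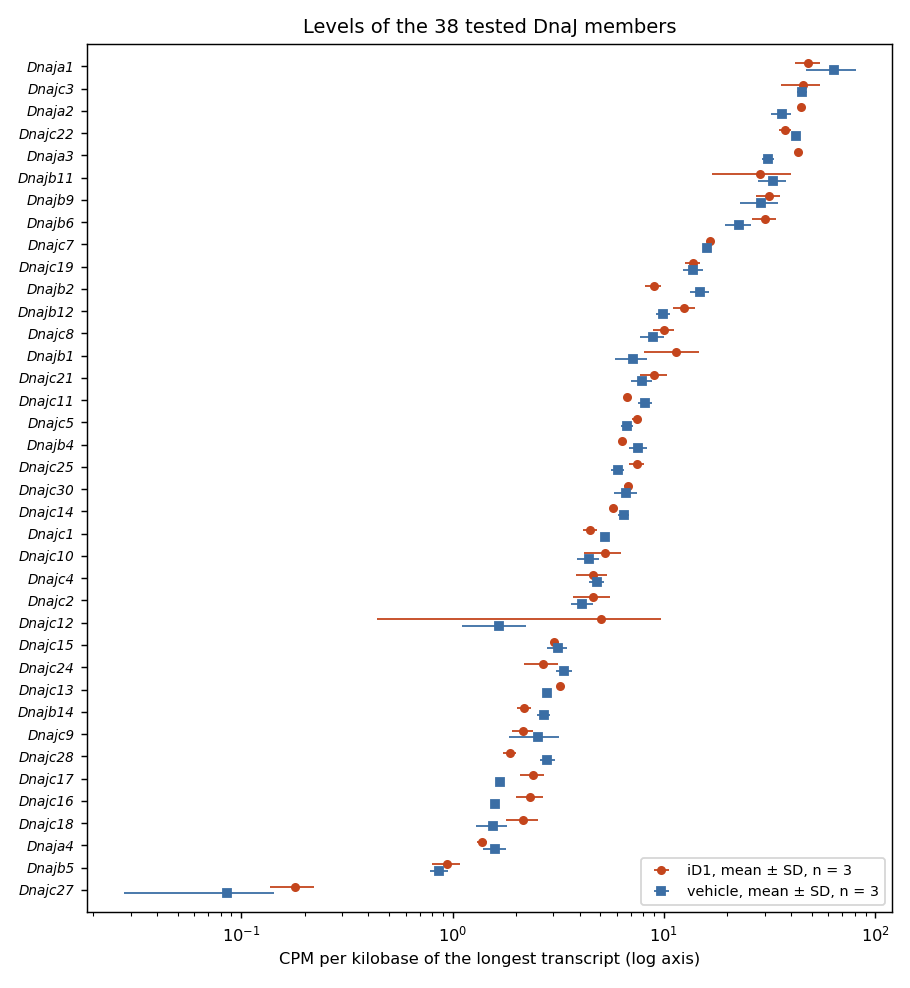
Level of the 38 tested DnaJ members as CPM per kilobase of the longest transcript, on a log axis, as mean ± SD of 3 libraries, iD1 circles above vehicle squares. Members are ordered by the mean over all 6 libraries, in which Dnaja1, Dnajc3, Dnaja2, Dnajc22 and Dnaja3 lead; in vehicle livers alone Dnajb11 (32.7) lay above Dnaja3 (31.1). The groups lie close together for most members.

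Within the groups, single libraries led many members at once. The highest iD1 library was replicate 2 for 19 of the 38 tested members. It led 12 of 16 cytosolic and nuclear, 6 of 11 endoplasmic reticulum, 1 of 7 mitochondrial and 0 of 3 traffic members. The highest vehicle library was the unnumbered replicate for 18 of the 38. It led 11 of 16 cytosolic and nuclear, 4 of 11 endoplasmic reticulum, 2 of 7 mitochondrial and 1 of 3 traffic members. These libraries had the lowest TMM factor of their group, 0.878 for iD1 replicate 2 and 1.01 for the unnumbered vehicle replicate. Their CPM sums over all tested genes were also the highest of their group. Whether the lead is particular to the DnaJ members was not tested. The calls moved with the libraries: without iD1 replicate 1, 5 members were higher and 2 lower, the added ones being Dnajb1, Dnajb6 and Dnajc18. These 7 calls are 17.9% of the 39 members tested in that fit, close to the 18.1% called over all genes. Leaving out iD1 replicate 3, the unnumbered vehicle library or the first vehicle replicate left no member called higher, and in the same fits the genes called higher over the whole table numbered 653, 591 and 786, against 1155 with all 6 libraries. Dnajb2 was the call that held in every fit of 5 libraries.

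Scaling mattered for the balance of the calls. With unscaled library sizes the median log2 fold change of all tested genes shifted to -0.20 and that of the members to -0.11, and 0 members were called higher and 7 lower, against 2 and 2 with TMM. Over all genes the split was 597 higher and 1883 lower with unscaled sizes, against 1155 and 1138 with TMM. With upper-quartile scaling the members split into 2 higher and 3 lower, and all genes into 902 higher and 1447 lower. Dnajb2 was lower under each of these scalings, and the sign of Dnaja3 and Dnajc16 stayed positive.

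Of the 9 tested HSP70 chaperones, the partners of the DnaJ proteins, 3 rose and none fell in edgeR, with a median log2 fold change of 0.04. At an unadjusted edgeR p under 0.05, 1 was lower, and DESeq2 and limma-voom called none lower. The called share was 33.3%, against 16.7% of all tested genes. This list and those below were chosen with earlier results of these data known. Their called shares therefore cannot test whether a list holds more calls than the background. The stress-inducible Hspa1a had 20.5, 46.5 and 35.2 CPM in iD1 replicates 1 to 3, against 0.965, 1.90 and 0.735 CPM in the vehicle libraries (log2 fold change 4.79, SE 0.47; edgeR quasi-likelihood, Benjamini-Hochberg adjusted p = 0.00211). Its near-identical copy Hspa1b had 57.9, 114 and 85.0 CPM in iD1 replicates 1 to 3, against 23.9, 27.4 and 31.9 CPM in the vehicle libraries (log2 fold change 1.62, SE 0.24; edgeR quasi-likelihood, Benjamini-Hochberg adjusted p = 0.00407). Each iD1 library was above each vehicle library for both, and iD1 replicate 2 was the highest, as for their partner Dnajb1. How reads were divided between these copies is uncertain. Hspa2 rose too (log2 fold change 1.27, SE 0.24; edgeR quasi-likelihood, Benjamini-Hochberg adjusted p = 0.00791). Hspa9, the partner of Dnaja3, had 475, 494 and 515 CPM in iD1 replicates 1 to 3, against 433, 408 and 446 CPM in the vehicle libraries, and did not pass (log2 fold change 0.21; edgeR quasi-likelihood, Benjamini-Hochberg adjusted p = 0.321).

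The nucleotide exchange factors, which act after the DnaJ proteins in the HSP70 cycle, split in both directions: 4 of 14 rose and 3 fell (50% called, against 16.7% of all tested genes), with a median of 0.10. Grpel2, the exchange factor of Hspa9, rose (log2 fold change 1.06, SE 0.15; edgeR quasi-likelihood, Benjamini-Hochberg adjusted p = 0.00211), as did the BAG-domain gene Bag4 (0.75, SE 0.13; edgeR adjusted p = 0.00545). Hspa4l and Hsph1, cytosolic exchange factors of the HSP110 type, fell, with log2 fold changes of -1.60 (SE 0.17; edgeR adjusted p = 0.000688) and -0.86 (SE 0.17; edgeR adjusted p = 0.00839). Leaving out iD1 replicate 3, the unnumbered vehicle library or the first vehicle replicate reduced the number that rose to 2. In the same fits 4.58%, 4.27% and 5.57% of all tested genes were called higher, against 8.42% with all 6 libraries.

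HSP90 receives clients from HSP70 and the DnaJ proteins, and 6 of 18 genes of this list fell while none rose (edgeR; 2 higher at an unadjusted p under 0.05, none in DESeq2 and 1 in limma-voom), with a median of -0.11 and a called share of 33.3%, against 16.7% of all tested genes. Among them were Hsp90aa1 (log2 fold change -1.21, SE 0.20; edgeR quasi-likelihood, Benjamini-Hochberg adjusted p = 0.00495), the immunophilin Fkbp4 (-1.10, SE 0.12; edgeR adjusted p = 0.000686), Stip1, which bridges HSP70 and HSP90 (-1.11, SE 0.15; edgeR adjusted p = 0.00188), and the ATPase activator Ahsa1 (-0.55, SE 0.12; edgeR adjusted p = 0.0123). Without the unnumbered vehicle replicate, 3 fell. The share of all tested genes called lower in that fit was 4.48%, against 8.3% with all 6 libraries. The call of Ahsa1 was among those lost without the unnumbered vehicle replicate (edgeR adjusted p = 0.0576). It was also lost without iD1 replicate 3 (edgeR adjusted p = 0.0570). Fkbp5, an immunophilin of steroid receptor complexes, had the largest log2 fold change of the list and is named here after its values were seen. It had 220, 253 and 231 CPM in iD1 replicates 1 to 3, against 23.4, 108 and 110 CPM in the vehicle libraries. Every iD1 library was above every vehicle library, and vehicle replicate 1 was far below the other vehicle libraries. The difference did not pass (log2 fold change 1.54, SE 0.59; edgeR quasi-likelihood, Benjamini-Hochberg adjusted p = 0.149), but it passed without vehicle replicate 1 (log2 fold change 1.10, edgeR adjusted p = 0.00390) and in limma-voom (adjusted p = 0.0450). A list of 18 genes held small heat shock proteins, chaperonins and heat shock factors, with further genes such as Hsbp1 and Cacybp that are none of these. Of the 18, 1 rose and 2 fell, with a median of -0.09. The called share was 16.7%, the same as over all tested genes. Hspb8 rose (log2 fold change 1.22; edgeR adjusted p = 0.00372), and Cacybp (-0.94; edgeR adjusted p = 0.00424) and the transcription factor Hsf2 (-0.63; edgeR adjusted p = 0.0169) fell. Leaving out iD1 replicate 2, the unnumbered vehicle library or iD1 replicate 3 reduced the number that fell to 1, Hsf2 being lost (edgeR adjusted p from 0.0508 to 0.0660). In the same fits 5.15%, 4.48% and 4.06% of all tested genes were called lower. Hsf1, the main heat shock factor, had a log2 fold change of 0.00 (SE 0.15).

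A list of 26 genes covered folding, protein disposal and stress signalling of the endoplasmic reticulum, in which the luminal DnaJ members work. In edgeR 2 of them rose and none fell, with a median of -0.15. At an unadjusted edgeR p under 0.05, 3 were lower. DESeq2 called 1 lower and limma-voom none. The 2 that rose belong to disposal and stress signalling. The called share was 7.69%, against 16.7% of all tested genes, and the share called higher over all genes was 8.42%. Herpud1, a factor of protein disposal, rose (log2 fold change 1.20, SE 0.20; edgeR quasi-likelihood, Benjamini-Hochberg adjusted p = 0.00428), and so did the stress transcription factor Ddit3 (0.69, SE 0.21; edgeR adjusted p = 0.0475). The call of Ddit3 was lost without each library other than iD1 replicate 1 (edgeR adjusted p from 0.0893 to 0.162). Without iD1 replicate 2, the library in which the luminal DnaJ members were highest, 1 rose and 5 fell. In that fit 5.72% of all tested genes were called higher and 5.15% lower. The naming rule leaves out 6 further J-domain genes; 4 were tested and none passed (none at an unadjusted p under 0.05 in edgeR, none in DESeq2 and none in limma-voom). The clathrin-uncoating Gak had a log2 fold change of 0.24 (SE 0.12; edgeR adjusted p = 0.204).

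**Figure D4:**
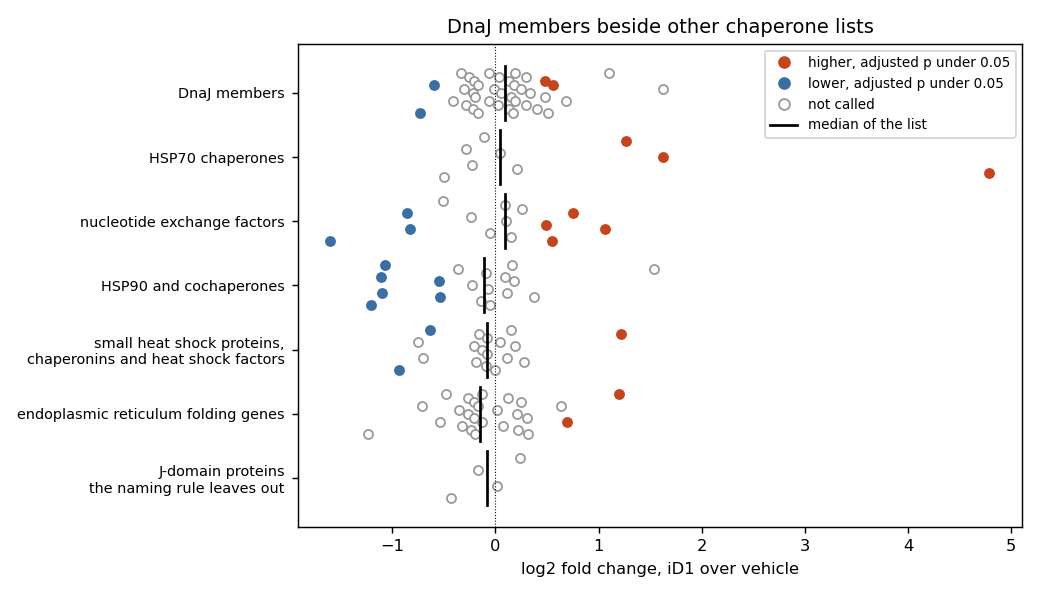
Log2 fold change, iD1 over vehicle, of the tested genes of the DnaJ family and of 6 related lists; each point is a gene, filled points passed the adjusted p threshold of 0.05, and vertical bars are medians. The DnaJ points cluster between -0.73 and 0.68 except Dnajc12 and Dnajc27, while Hspa1a lies at 4.79 and Hspa4l at -1.60.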

How the data were processed

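Per the labels, RNA was isolated with TRIzol and RNeasy columns and sequenced from stranded mRNA libraries. The authors deposited a table of estimated counts per gene (expected counts, not scaled to depth). Aligner, quantifier, build and annotation: not given in the sources used here. In each library 22.6% to 27.7% of values were not whole, and all were rounded to whole counts. Symbols were found for 34582 of 34866 identifiers, and positions come from GENCODE M21 (GRCm38), which held the deposited version of 39 of the 43 members.

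Genes were kept by filterByExpr (minimum count 10, minimum total 15), which left 13718. The comparison used edgeR's quasi-likelihood F test (edgeR 4.0.16, R 4.3.3, robust, two-sided, TMM), p-values were adjusted after Benjamini-Hochberg over the 13718 genes, and the threshold was 0.05; only the members' and lists' values are given. The SE is the size of the log2 fold change divided by the square root of F. The test was checked on simulated counts. Alternatives were other scalings and filters, DESeq2 1.42.0, limma-voom (limma 3.58.1), single libraries left out and a replicate block. No pair of libraries agreed within sampling noise. Depth limits the members with few counts.

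The members, their compartments and the lists were chosen with earlier results of these data known. Named are all called members, the 6 uncalled ones with the smallest p, the 5 with the highest level and up to 4 genes per list; the other members are described by values, and Dnajc12, Dnajc27, Dnajb11, Fkbp5 and the HSP70 genes that did not pass were chosen after their values were seen. Promoter windows are from RefSeq. The unnumbered vehicle column was used as a replicate without a number.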

Additional observations from a re-analysis of the deposited data

How the results depend on the processing

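With TMM, 2 members were higher and 2 lower; RLE scaling, limma-voom, no filter, a filter of 1 CPM and non-robust shrinkage gave the same counts, DESeq2 gave 3 and 2, and upper-quartile scaling 2 and 3. Unscaled library sizes gave 0 higher and 7 lower, and an adjusted p under 0.01 gave 0 and 1. With single libraries left out, between 0 and 5 members were higher and between 1 and 2 lower, while over all genes 591 to 1201 were higher and 578 to 1373 lower. The cause was not tested. Whether the replicate numbers pair the libraries is not known. Same-numbered libraries had deviations from their group means correlated at 0.169 and -0.127, and 2 such values cannot decide it. A fit with the replicate number as a block used the 4 numbered libraries. It gave 0 higher and 0 lower (edgeR adjusted p = 0.0759 for Dnajb2) and 772 calls over all genes. The same 4 libraries without the block, a fit chosen after seeing the data, gave 0 and 0 and 521 calls. How many libraries were left out and which ones cannot be told apart in these fits. All 6 libraries gave 2293. The log2 fold change of Dnajc3, 0.02, became -0.06 with upper-quartile scaling, -0.19 with unscaled sizes, -0.01 in limma-voom, -0.03 without vehicle replicate 1 and -0.17 without iD1 replicate 2, and fits without single libraries ranged up to 0.13. That of Dnajb11, -0.20, became 0.00 in the same 4 libraries without the block and 0.03 without iD1 replicate 3, and fits without single libraries ranged down to -0.57. Members with few counts, such as Dnajc27 and those not tested, are limited by depth.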
